A study of Mus musculus with 4 samples.

Results

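The 32 genes described here encode chaperones, disulfide isomerases, degradation factors, stress sensors and translocation proteins of the endoplasmic reticulum (ER). They were taken as a named list, by symbol, from the 55450 genes of the deposited tables. No measured value entered the rule, but the list was chosen with earlier results of these data known. All 32 were found, and all 32 reached a level of at least 1 TPM, a unit scaled for transcript length within a library, in each of the 4 libraries, which 10469 of all genes reached. RNA was measured by polyA-plus RNA-seq in macrophages grown from the bone marrow of C57BL/6J mice. The series holds 1 group of 4 replicates, numbered 1 to 4, with no untreated group. All 4 had been pretreated for 12 hours with 100 ng/ml lipid A, the active part of bacterial lipopolysaccharide, kept without it for 12 hours, and collected at 0 minutes of a second exposure. Another label field names the agent as lipoprotein A, so the labels do not agree on it. The 4 libraries carry separate biosample identifiers and 1 shared donor identifier, and neither age nor sex was recorded, so the spread between them may include technical spread.

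Proteins that enter the secretory pathway fold in the ER. Hspa5 (BiP), an Hsp70, and Hsp90b1 (Grp94), an Hsp90, hold unfolded chains. Calreticulin and calnexin hold chains through their N-linked sugars, and the protein disulfide isomerases make and rearrange disulfide bonds. When unfolded protein accumulates, the sensors IRE1 (encoded by Ern1), ATF6 and PERK (encoded by Eif2ak3) start the unfolded protein response. IRE1 removes a short intron from Xbp1 mRNA in the cytoplasm, ATF6 is cut to a transcription factor, and PERK phosphorylates eIF2alpha, which lowers translation and favours ATF4. Chains that do not fold are pulled back to the cytosol and degraded, a process named ER-associated degradation (ERAD). In macrophages this system serves a large output of secreted and lysosomal proteins, and signals from Toll-like receptors are known to engage IRE1.

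Many of these genes are known targets of ATF6 and XBP1 through the ER stress response element (ERSE), in which CCAAT and CCACG are separated by 9 bases. Promoters, taken as 250 bases before to 50 after each RefSeq start in GRCm38.p6, were available for 26 of the 32 genes, with Ero1l matched through its synonym. Both strands were searched. The full element was found in 8 of the 26, namely Calr, Hspa5, Hsp90b1 (2 copies), Canx, Pdia6, Syvn1, Creld2 and Dnajc3, and in 39 of all 32851 promoters (0.119%). With at most 1 mismatch in the fixed letters it was found in 14 of the 26 and in 1.5% of all promoters. The shorter element ERSE-II, in which 1 base separates ATTGG from CCACG, was found in Dnajb11 and Herpud1 and in 0.0365% of all promoters. The XBP1 site TGACGTGG was found only in Vcp among the 26, and in 0.676% of all promoters. TGATGNAA, a letter pattern of ATF4 sites, was found only in Herpud1 among them, and in 3.97% of all promoters. A match is a description of letters, not a shown site of binding. The 6 of highest level with the full element are printed below, to show how the element is arranged in each. Capitals mark the element, which reads CGTGG before ATTGG where it lies on the opposite strand. Bases inside an annotated GENCODE exon were left out, so that of Hspa5, whose longer transcript model covers the element, the 30 bases around it are shown.
Calr, chr8:84846935-84847181, minus strand: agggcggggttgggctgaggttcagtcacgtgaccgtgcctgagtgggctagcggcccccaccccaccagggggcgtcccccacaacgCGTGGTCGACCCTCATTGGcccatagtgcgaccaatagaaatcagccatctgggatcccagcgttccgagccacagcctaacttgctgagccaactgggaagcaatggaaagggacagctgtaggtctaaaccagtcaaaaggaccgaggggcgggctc
Hspa5, chr2:34772020-34772049, plus strand: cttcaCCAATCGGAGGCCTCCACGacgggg
Hsp90b1, chr10:86705510-86705694, minus strand: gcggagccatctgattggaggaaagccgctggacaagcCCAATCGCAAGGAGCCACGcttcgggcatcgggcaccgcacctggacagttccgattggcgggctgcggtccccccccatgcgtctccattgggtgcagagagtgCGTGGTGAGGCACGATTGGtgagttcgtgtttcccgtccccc
Canx, chr11:50325674-50325923, minus strand: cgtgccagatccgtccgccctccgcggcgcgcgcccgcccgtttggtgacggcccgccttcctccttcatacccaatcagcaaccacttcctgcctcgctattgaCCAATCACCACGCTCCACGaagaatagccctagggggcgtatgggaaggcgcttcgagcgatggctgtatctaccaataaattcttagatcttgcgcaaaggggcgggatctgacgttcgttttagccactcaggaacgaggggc
Pdia6, chr12:17266339-17266544, plus strand: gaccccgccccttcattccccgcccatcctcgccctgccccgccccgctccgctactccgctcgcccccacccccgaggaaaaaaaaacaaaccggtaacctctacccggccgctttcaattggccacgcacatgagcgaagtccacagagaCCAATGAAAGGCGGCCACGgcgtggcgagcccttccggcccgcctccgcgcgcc
Syvn1, chr19:6046326-6046575, plus strand: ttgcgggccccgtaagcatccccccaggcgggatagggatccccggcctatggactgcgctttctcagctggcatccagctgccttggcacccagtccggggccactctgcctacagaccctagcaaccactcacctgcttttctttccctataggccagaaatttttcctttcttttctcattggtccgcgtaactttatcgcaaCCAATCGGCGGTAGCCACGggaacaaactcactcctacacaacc

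The element began 65 bases before the RefSeq start in Hspa5, 44 in Syvn1, 98 in Pdia6, 145 in Canx and 162 in Calr, and 212 and 107 in Hsp90b1. In the available promoters of other ER genes, of the eIF2alpha arm and of chaperones outside the ER, the full element was found only in Derl3. Matched by symbol alone, promoters were available for 21 of 26 folding, 15 of 17 N-glycan and 14 of 20 ERAD genes. They were available for 16 of 21 translocation and 12 of 16 signalling genes, 13 of 14 of the eIF2alpha arm and 25 of 32 chaperones. The 10 genes with either element had a median level of 164 TPM, against 75.2 TPM for the 16 with neither.

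The stretch of Xbp1 that IRE1 cuts out is printed because the spliced and the unspliced mRNA code for different proteins. It was located as the 26 bases between a pair of IRE1 loop motifs, positions 815 to 840 of the 2129-base transcript Xbp1-201, inside coding exon 4 of 5. Capitals mark the stretch, with 20 bases of coding sequence on either side, and the coordinates (mm10) are those of the capitals.
Xbp1-201, chr11:5524279-5524304, plus strand: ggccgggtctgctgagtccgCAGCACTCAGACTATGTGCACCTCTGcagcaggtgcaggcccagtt

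Of the 4 annotated Xbp1 transcripts, Xbp1-201, Xbp1-203 and Xbp1-204 hold these bases, and none holds the join without them. The 2 forms were therefore summed in 1 level in these tables, and IRE1 activity was not measured. Xbp1-201 took 97.6, 94.5, 98.1 and 98.1% of Xbp1 TPM in replicates 1 to 4.

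Gene counts totalled 25591162, 27377973, 48866046 and 57119610 in replicates 1 to 4, and the lowest count of any of the 32 genes in any library was 200, so that counting error was small. Per notes among the files, replicates 1 and 2 each came from 6 read files and replicates 3 and 4 each from 4, and these pairs of libraries stood apart. The mitochondrial share of counts was 0.778 and 1.16% in replicates 1 and 2 against 3.34 and 3.00% in 3 and 4. All 10 macrophage markers were above 1 TPM, with a summed level of 27543 to 34233 TPM. Markers of B and plasma cells, which carry an enlarged ER, summed to 6.3 to 7.57 TPM. Of the 11, 3 were above a mean of 1 TPM, namely Cd79b (3.16 TPM), Sdc1 (2.005 TPM) and Ighm (1.445 TPM). The plasma cell gene Tnfrsf17 was listed at 0. No fibroblast, T cell or erythroid marker reached a mean of 1 TPM. Neutrophil markers summed to 90.6, 14.2, 80.1 and 7.0 TPM, with 3 of 10 above a mean of 1 TPM. Of 8 dendritic cell markers only Bst2, also an interferon-induced gene, passed 1 TPM. In bulk RNA, fewer cells of a type and less RNA per cell cannot be told apart.

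The 32 genes together held 0.317, 0.597, 0.531 and 0.616% of all TPM in replicates 1 to 4. Their mean levels ran from 5.07 TPM for Eif2ak3 to 1236 TPM for Calr. A mean of 100 TPM or more was found for 10 of them, and of 10 TPM or more for 31. Among the expressed genes Calr ranked 83, Hspa5 178 and Hsp90b1 300, while Eif2ak3 ranked 8609. TPM, being scaled for length, serves here to compare genes. To compare libraries, counts scaled to a common library total by the trimmed mean of M values (TMM-scaled CPM) are used.

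**Figure D1:**
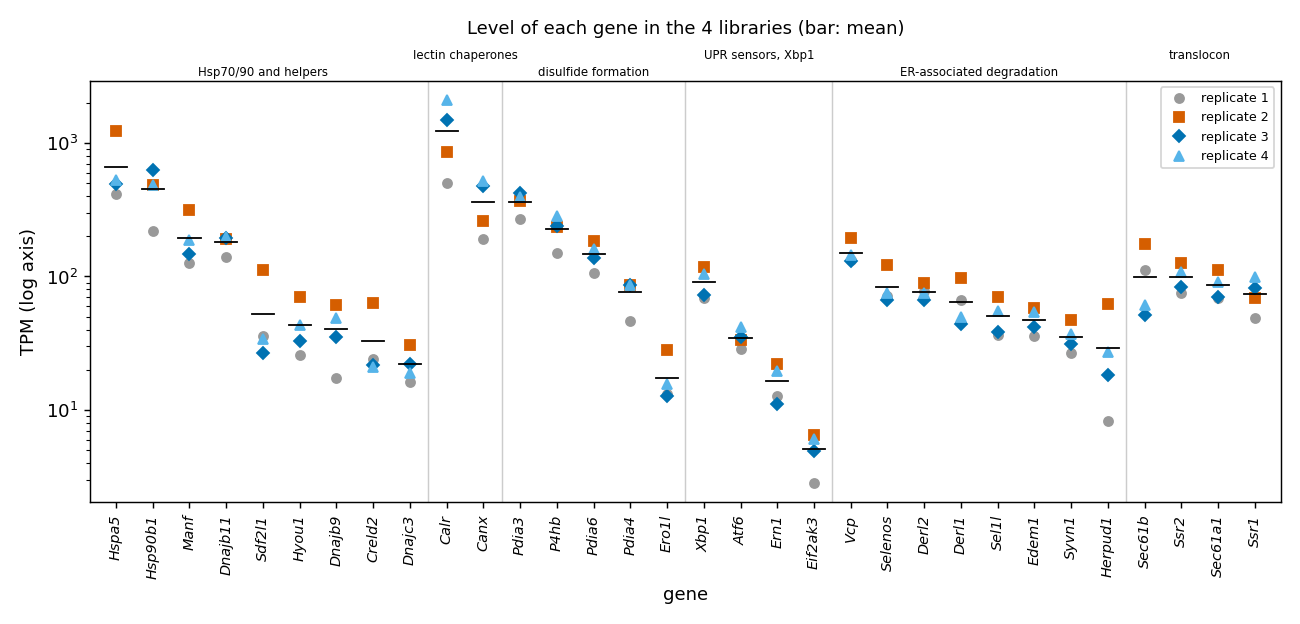
TPM on a log axis of each of the 32 genes, ordered by role and mean level; symbols are the 4 libraries and bars their mean. Replicate 2 lies highest for most genes, with Calr, Canx and Hsp90b1 among the exceptions.

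Among the Hsp70 and Hsp90 chaperones and their helpers, Hspa5 led. Its level was 413, 1231, 495 and 524 TPM in replicates 1 to 4 (666 ± 380, SD, n = 4), so that replicate 2 stood far above the other 3. Hsp90b1, at 218, 483, 626 and 483 TPM, was instead highest in replicate 3 and lowest in replicate 1. Hyou1 (Grp170), a large Hsp70-like protein that exchanges nucleotide on BiP, was at 25.9, 70.7, 32.8 and 43.7 TPM. Like Hspa5 it was highest in replicate 2. The ER J-proteins pass clients to BiP. Dnajb11 (ERdj3) varied little, at 141, 189, 195 and 198 TPM, with only replicate 1 apart in this unit. In TMM-scaled CPM Dnajb11 was at 176, 197, 226 and 225, with replicates 1 and 2 both below 3 and 4. Dnajb9 (ERdj4) was at 17.3, 60.7, 35.1 and 49.3 TPM and Dnajc3 (p58IPK) at 16.2, 30.5, 22.3 and 19.1 TPM, both lowest in replicate 1 and highest in replicate 2. Sdf2l1, a partner of the ER J-proteins, was at 35.7, 111, 26.8 and 34.2 TPM. Manf, a secreted ER-resident factor that binds BiP, was at 126, 317, 148 and 188 TPM. Creld2, an ER protein with EGF-like repeats, was at 24.2, 63.9, 21.8 and 20.9 TPM. In Sdf2l1 and Creld2 replicate 2 alone was high and the other 3 libraries lay close together. Exons of Manf overlap those of Dcaf1 and Rbm15b, at a mean of 4.36 and 5.60 TPM, and whether the counting used strand is not given in the sources used here.

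The lectin chaperones had another order of libraries. Calr was at 503, 850, 1492 and 2098 TPM and Canx at 191, 259, 473 and 516 TPM, with replicates 3 and 4 above replicates 1 and 2 in both. Much of that gap in TPM lay in short transcripts. The full-length coding transcript Calr-201 (2184 bases) was at 455, 721, 565 and 752 TPM, so that replicate 2 was above replicate 3. Calr-204, a 943-base transcript annotated with a retained intron, was at 44.1, 116, 925 and 1343 TPM. Retained-intron transcripts thus held 9.58 and 15.2% of Calr TPM in replicates 1 and 2 against 62.2 and 64.2% in 3 and 4. Canx-201 (3779 bases) was at 177, 228, 233 and 262 TPM, and the 708-base transcript Canx-202 at 8.64, 21.6, 233 and 248 TPM. In TMM-scaled CPM, where short transcripts weigh less, Calr was at 682, 930, 1203 and 1619 and Canx at 484, 533, 666 and 726. On this scale the gap between the pairs of libraries was smaller, but the pairs still did not overlap. The Calr counts still included those of Calr-204, at 518, 1473, 21858 and 36853 before scaling. Calr-201 had 14956, 25756, 37564 and 58363, and in TPM the pairs overlapped for Calr-201 alone.

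Of the disulfide enzymes, Pdia3 (ERp57), the isomerase that works with calreticulin and calnexin, led at 268, 369, 422 and 394 TPM. P4hb (PDI), the classical isomerase, followed at 150, 233, 239 and 284 TPM. Part of the P4hb level in replicates 3 and 4 also lay in a short transcript. P4hb-203, of 770 bases, held 38.8 and 30.7% of its TPM there against 4.04 and 3.85% in replicates 1 and 2, while P4hb-201 was at 144, 223, 146 and 197 TPM. Pdia6 (P5) was at 106, 183, 138 and 161 TPM. Pdia4 (ERp72) was at 46.5, 86.4, 85.8 and 85.8 TPM, a low value in replicate 1 beside 3 nearly equal ones. Ero1l, the oxidase that passes oxidizing equivalents to PDI, was much lower and highest in replicate 2, at 13.3, 28.0, 12.8 and 15.6 TPM.

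Eif2ak3 and Ern1 had the lowest mean TPM of the 32 genes. Ern1 was at 12.7, 22.1, 11.2 and 19.6 TPM, Atf6 at 28.8, 33.2, 35.1 and 42.0 TPM and Eif2ak3 at 2.85, 6.47, 4.94 and 6.03 TPM. Xbp1, the target of IRE1, was more abundant than any of them in each library, at 69.5, 117, 72.6 and 103.6 TPM. In both Xbp1 and Ern1 replicates 2 and 4 were above 1 and 3. Atf6 was the only one of the 4 in which replicate 2 was not among the 2 highest libraries in TPM.

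Of the ERAD genes, Vcp (p97), the cytosolic ATPase that pulls chains out of the membrane, was at 133, 194, 131 and 145 TPM. Herpud1, a membrane protein of the retrotranslocation complex, varied most of all 32 genes, at 8.24, 62.7, 18.3 and 27.0 TPM. Its highest library was 7.61 times its lowest in TPM, and its coefficient of variation in TMM-scaled CPM was 79.1%, against a median of 23.0% over the 32 genes and 21.5% over all tested genes. The ubiquitin ligase Syvn1 (Hrd1) was at 26.6, 47.2, 31.2 and 37.2 TPM and its partner Sel1l at 36.8, 70.8, 38.5 and 55.1 TPM. Edem1, a mannosidase-like factor that passes on glycoproteins, was at 35.6, 58.4, 41.6 and 54.2 TPM. In these 3 genes replicate 2 was highest and replicate 4 second. The derlins are membrane proteins of the same complex. Derl1 was at 66.1, 96.8, 44.2 and 50.01 TPM and Derl2 at 77.7, 89.4, 66.2 and 75.1 TPM. Derl2 had the lowest coefficient of variation of the 32, 11.4%. Selenos, a selenoprotein that ties Vcp to the derlins, was at 71.6, 122, 66.3 and 74.6 TPM, with replicate 2 alone high. Exons of Derl2 and Syvn1 overlap, on the opposite strand, those of Mis12 and Mrpl49, at a mean of 23.2 and 25.9 TPM.

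The translocon moves new chains into the ER. Its channel subunit Sec61a1 was at 69.2, 112, 70.6 and 90.9 TPM. The small tail-anchored subunit Sec61b was at 112, 174, 51.1 and 60.9 TPM, so that replicates 1 and 2 lay above 3 and 4. The accessory proteins of the translocon-associated complex were at 49.0, 68.8, 81.4 and 98.3 TPM for Ssr1 and at 75.9, 127, 83.8 and 109 TPM for Ssr2. For Ssr1 the order of libraries depended on the unit. A 523-base transcript, Ssr1-202, was listed at 0 in replicates 1 and 2 and at 28.3 and 18.3 TPM in 3 and 4, and in TMM-scaled CPM Ssr1 was at 160, 200, 156 and 192, highest in replicate 2.

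The clearest pattern over the list was between single libraries. In TMM-scaled CPM, 31 of the 32 genes were higher in replicate 2 than in replicate 1, as were 48.1% of all tested genes, with a median log2 ratio of 0.51 against -0.02. The ratio of replicate 2 to the median of the other 3 libraries, a measure chosen after the values were seen, had a median of 1.40 over the 32 genes and of 1.008 over all 11984 tested genes. Replicate 2 was the highest library for 22 of the 32 (25.0% of all tested genes), replicate 4 for 6 (24.4%), replicate 3 for 4 (22.4%) and replicate 1 for 0 (28.2%). Replicate 1 was the lowest for 17 (25.9%). A ratio of at least 1.5 was reached by 10 of the 32, and by 16.0% of all tested genes. These were Herpud1 (3.41), Sdf2l1 (3.00), Sec61b (2.68), Creld2 (2.65), Hspa5 (2.00), Hyou1 (1.93), Ero1l (1.90), Manf (1.79), Derl1 (1.78) and Dnajb9 (1.52). The ratio also takes in a gap between the pairs of libraries. Against the next highest library, replicate 2 was higher by 2.61 times in Sdf2l1, 2.34 in Herpud1, 2.22 in Creld2, 1.78 in Hspa5, 1.67 in Ero1l, 1.51 in Hyou1 and 1.45 in Manf. It was higher by only 1.29 times in Sec61b and 1.23 in Derl1, where replicate 1 was next, and by 1.10 in Dnajb9, where replicate 4 was. Lowest in the first ratio were Calr (0.774), Canx (0.800), Atf6 (0.860), Pdia3 (0.862) and Dnajb11 (0.872). By role, the median ratio was 1.79 for the Hsp70 and Hsp90 group, 1.45 for ERAD, 1.36 for the translocon, 1.27 for the sensors with Xbp1, 1.20 for the disulfide enzymes and 0.787 for the lectins. All 8 ERAD genes and all 4 translocon genes were highest in replicate 2. This is 1 library against 3, which allows no test. In TPM 24 of the 32 were highest in replicate 2, and in the second quantification 22. Replicates 3 and 4 differed less, with a median log2 ratio of 0.24 of replicate 4 over 3, and 26 of the 32 above 0 (50.2% of all tested genes). Beside this, neutrophil markers were higher in replicates 1 and 3 than in 2 and 4, and their part in the pattern was not tested.

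**Figure D2:**
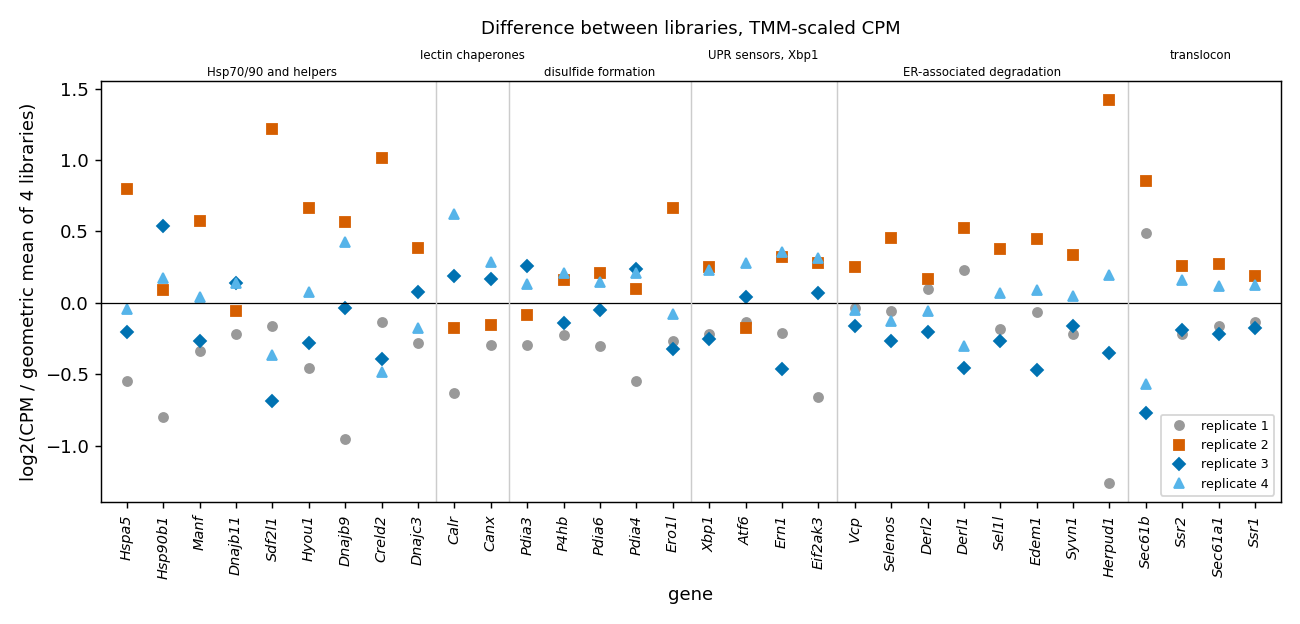
For each of the 32 genes, log2 of the TMM-scaled CPM in each library over the geometric mean of the 4. Replicate 2 is highest for 22 genes and replicate 1 lowest for 17, and Herpud1 spreads most.

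Genes with and without a promoter element overlapped in the ratio of replicate 2 to the median of the others. The median ratio was 1.31 for the 10 genes with an ERSE or ERSE-II (0.774 in Calr to 3.41 in Herpud1), 1.41 for the 16 with neither and 1.57 for the 6 without a promoter entry. Calr and Canx, with a full element each, lay at the low end. At the high end lay Sdf2l1 and Sec61b, with none in the window. Herpud1, with an ERSE-II, and Creld2 and Hspa5, with a full element each, lay there too. Against the next highest library, replicate 2 was higher by only 1.29 times in Sec61b.

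A test was possible between replicates 3 and 4 and replicates 1 and 2, which differ in the number of read files. It compares libraries, not conditions. With edgeR's quasi-likelihood test and Benjamini-Hochberg adjustment over all 11984 tested genes, none of the 32 was higher in replicates 3 and 4 (2.05% of all tested genes were) and 1 was lower (3.68%). At an unadjusted p below 0.05 there were 5 of the 32, and 28.5% of all tested genes. The 1 lower gene was Sec61b, at 26.2 and 33.7 TMM-scaled CPM in replicates 1 and 2 against 10.9 and 12.6 in 3 and 4, a log2 fold change of -1.35 (SE 0.20, adjusted p = 0.0344). Both libraries of each pair lay on their own side. The call was lost without replicate 3 (adjusted p = 0.202) or replicate 4 (adjusted p = 0.223), where no gene of all passed.

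Other members came near in value without passing. Derl1 had a log2 fold change of -0.76 (SE 0.18, adjusted p = 0.0626), Calr of 0.81 (SE 0.27, adjusted p = 0.123), Sdf2l1 of -1.21 (SE 0.44, adjusted p = 0.143) and Creld2 of -0.99 (SE 0.37, adjusted p = 0.148). Without replicate 2, Sdf2l1 was at -0.36 and Creld2 at -0.30. With DESeq2, Calr was called higher, and Derl1, Sdf2l1 and Sec61b lower. DESeq2 called 1868 genes over all, from the 11984 that passed the same filter. The pairs did not overlap in 7 genes with replicates 3 and 4 higher, namely Hsp90b1, Dnajb11, Calr, Canx, Pdia3, Pdia4 and Atf6 (29.0% of all tested genes), nor in 7 with them lower, namely Sdf2l1, Creld2, Derl1, Derl2, Selenos, Vcp and Sec61b (30.1%). The other 18 overlapped. The median log2 fold change of the 32 was -0.12, beside -0.01 over all tested genes. It was 0.23 without replicate 2 and 0.02 without replicate 3, so that its sign rested on either of these libraries.

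**Figure D3:**
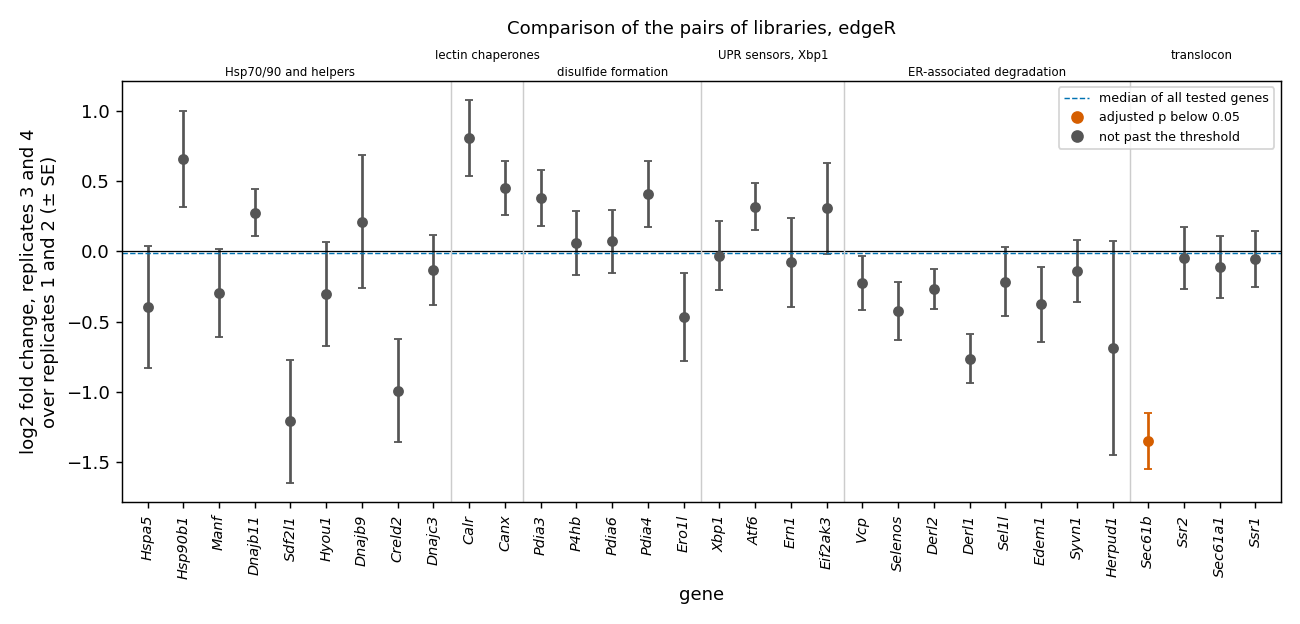
Log2 fold change of replicates 3 and 4 over replicates 1 and 2 for each of the 32 genes, with the standard error, from edgeR; the dashed line is the median of all tested genes. Only Sec61b, at -1.35, passed the adjusted threshold.

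Of 100 other genes of ER folding, N-glycosylation, ERAD, translocation and stress signalling, 96 were tested. In the same test 1 was higher in replicates 3 and 4 (2.05% of all tested genes were) and 4 were lower (3.68%). Their median log2 fold change over the 96 was 0.04. The higher one was Erlec1, a lectin of ERAD, at 33.2, 39.2, 70.7 and 75.1 TPM (log2 fold change 0.89, SE 0.14, edgeR adjusted p = 0.036). Lower were 2 further small translocon proteins, of 21 other translocation genes with a median log2 fold change of -0.11. Sec61g, the third subunit of the channel that holds Sec61b, was at 23.0, 29.95, 10.8 and 8.65 TPM (log2 fold change -1.34, adjusted p = 0.0413 by edgeR). Ssr4, of the complex that holds Ssr1 and Ssr2, was at 101, 120, 56.7 and 59.3 TPM (log2 fold change -0.91, adjusted p = 0.036 by edgeR). Also lower were Bax, a pro-apoptotic BCL2 family member (log2 fold change -1.31, edgeR adjusted p = 0.0298), and Traf2, an adaptor that binds IRE1 (-0.91, edgeR adjusted p = 0.0415). The calls for Erlec1, Sec61g, Ssr4 and Traf2 were each lost when any 1 of the 4 libraries was left out, and that for Bax without replicate 3 or 4. With offsets for GC content and transcript length Erlec1 (0.79) and Ssr4 (-0.59) were not called, and Bax was at -0.81. With the second quantification Sec61g (-1.14) was not called.

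The most abundant of these other genes were Ppib, Selenof and Sdf4 in folding, Stt3a, Rpn2 and Mcfd2 in glycosylation, Aup1, Os9 and Selenok in ERAD, Serp1, Spcs1 and Srp14 in translocation, and Tmbim6, Bak1 and Ptpn1 in signalling. Tmbim6, an ER membrane inhibitor of cell death, led with a mean of 579 TPM. The high replicate 2 was weaker in these lists. The median ratio of replicate 2 to the median of the others was 0.910 for other folding genes, 1.07 for glycosylation, 1.03 for other ERAD, 1.11 for other translocation and 1.11 for other signalling genes.

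Over the 14 genes of the PERK and eIF2alpha arm the median ratio was 1.41, and 7 of the 14 were highest in replicate 2. Ddit3 (CHOP), a transcription factor linked to cell death under stress, was at 230, 590, 384 and 465 TPM. Ppp1r15a (GADD34), which restores eIF2alpha, was at 14.5, 106, 26.4 and 36.7 TPM. Trib3, a pseudokinase induced by ATF4 and CHOP, was at 10.2, 33.2, 4.64 and 10.4 TPM. Asns, an amino acid synthetase gene, was at 10.3, 33.4, 12.5 and 31.5 TPM, and Chac1, a glutathione-degrading enzyme, at 1.66, 4.81, 1.18 and 1.89 TPM. In Ppp1r15a, Trib3 and Chac1 replicate 2 was well above the other 3, whereas in Asns replicates 2 and 4 were close. Atf4 was at 193, 321, 194 and 252 TPM. Atf3, at 277, 241, 381 and 458 TPM, did not follow this order. In TMM-scaled CPM Atf3 was at 359, 262, 207 and 231, highest in replicate 1. The order of libraries for Atf3 thus depended on the unit. The remaining genes had mean levels of 304 TPM for Nupr1, 59.8 for Eif2s1, 44.2 for Ppp1r15b, 22.0 for Cebpg, 21.3 for Sesn2 and 1.02 for Ddit4. Cebpb, at 80.3, 93.7, 22.5 and 19.2 TPM, was lower in replicates 3 and 4 (log2 fold change -2.05, SE 0.16, edgeR adjusted p = 0.0166), a call lost without replicate 3 or 4. With GC and length offsets it was -1.11 (edgeR adjusted p = 0.0403). Its ratio of replicate 2 was 3.77, although replicate 1 was its highest library in TMM-scaled CPM. None of the other 13 passed.

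**Figure D4:**
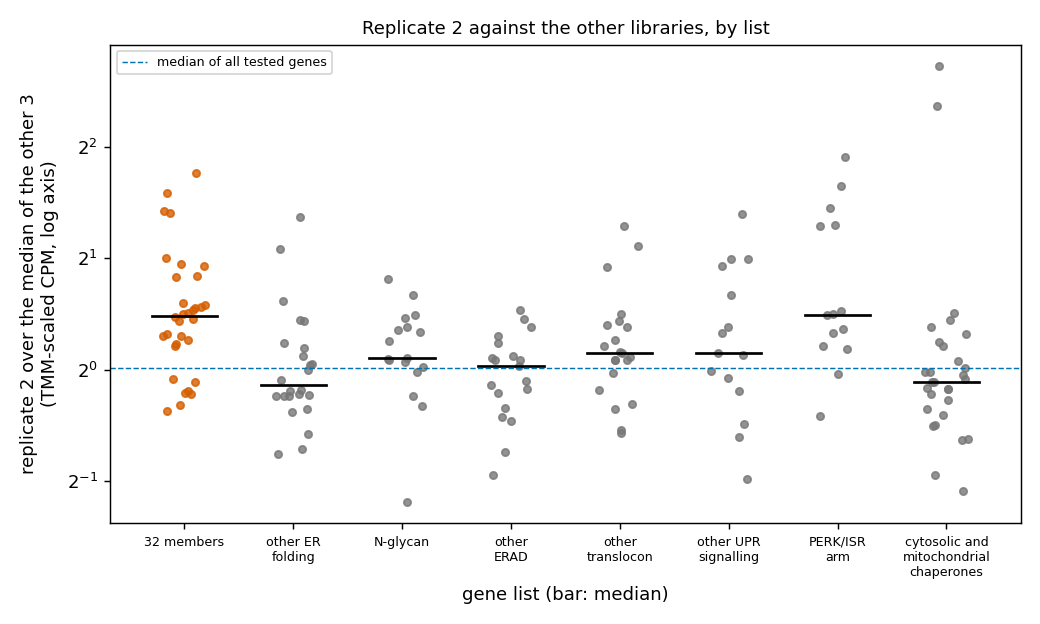
Ratio of replicate 2 to the median of the other 3 libraries (TMM-scaled CPM, log axis) for the 32 genes and 7 other lists; each point is a gene and each bar a median. Medians are 1.40 for the 32 genes, 1.41 for the PERK and eIF2alpha arm and 0.927 for chaperones outside the ER.

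Chaperones of the cytosol and mitochondria, a list of 32 genes of which 29 were tested, gave the nearest comparison. Their median ratio of replicate 2 was 0.927, although the inducible Hspa1a, at 5.01, 22.4, 3.31 and 3.99 TPM, was highest in replicate 2 too. Hspa1a and its near-identical copy Hspa1b can share reads. The median of log2(TPM + 1) was 6.10, 6.71, 6.07 and 6.25 over the ER genes in replicates 1 to 4 (6.28 ± 0.30, SD, n = 4), and 5.63 ± 0.10 (SD, n = 4) over the other list. The ER list was 0.65 ± 0.29 higher (SD, n = 4), in 4 of 4 libraries, by a two-sided exact sign-flip permutation test with p = 0.13, the smallest that 4 libraries allow. With only genes of at least 1 TPM kept, which takes the lowest genes out of the other list alone, the difference was -0.38 ± 0.55 (SD, n = 4, exact permutation p = 0.375). In the test between the pairs, Stip1, a co-chaperone of Hsp70 and Hsp90, was higher in replicates 3 and 4 (log2 fold change 1.16, edgeR adjusted p = 0.0362), a call lost when any 1 library was left out.

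Partner genes were compared within each library as log2 ratios of TPM + 1 over 12 pairs. No p could fall below 0.05, since the smallest that a two-sided exact sign-flip permutation over 4 libraries gives is 0.13. In 9 pairs all 4 libraries had the same order of the partners in the first quantification (exact permutation p = 0.13, adjusted p = 0.1667). Calr exceeded Canx by 1.70 ± 0.26 (SD, n = 4), Hspa5 exceeded Hyou1 by 3.87 ± 0.23 and Manf exceeded Creld2 by 2.61 ± 0.38. Xbp1 exceeded Atf6 by 1.34 ± 0.32, Ern1 exceeded Eif2ak3 by 1.51 ± 0.34, Sel1l exceeded Syvn1 by 0.47 ± 0.13 and Ssr2 exceeded Ssr1 by 0.42 ± 0.39. P4hb against Pdia3 was at -0.70 ± 0.17 and Pdia4 against Pdia6 at -0.96 ± 0.22. The order of Ssr2 and Ssr1 depended on the quantification. In the second, Ssr2 was above Ssr1 in replicates 1 and 2 and below it in 3 and 4 (0.22 ± 0.59, SD, n = 4). The other 3 of the 12 pairs changed order between libraries in the first quantification. Hspa5 was above Hsp90b1 in replicates 1, 2 and 4 and below it in replicate 3 (0.51 ± 0.76, SD, n = 4, exact permutation p = 0.375). Derl1 was above Derl2 only in replicate 2 (-0.32 ± 0.33, SD, n = 4, exact permutation p = 0.25). Sec61b against Sec61a1 was at 0.69, 0.63, -0.46 and -0.57 in replicates 1 to 4 (exact permutation p = 0.75), so that the order of these channel subunits turned between the pairs of libraries.

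For most of the genes 1 coding transcript carried the level. The main transcript was coding in all 32, held at least 90% of the TPM in 20 and under 50% in 2, with a median share of 96.4%. The 2 below were Syvn1-201 (40.4%) and Derl2-207 (43.9%). The 2 quantifications named the same main transcript for 31 of the 32, the exception being Syvn1, for which the second named Syvn1-204. In 7 genes the share separated the pairs of libraries by at least 10 percentage points in the mean, a limit chosen after the values were seen. How many of all genes did so was not computed, so this cannot be called particular to the list. The share was lower in replicates 3 and 4 for 5 of the 7, Calr, Canx, P4hb, Edem1 and Herpud1, and higher for Manf and Syvn1. Calr-201 held 90.4, 84.8, 37.8 and 35.8% and Canx-201 held 92.6, 88.1, 49.2 and 50.7% in replicates 1 to 4. P4hb-201 held 96.0, 95.5, 61.2 and 69.3% and Edem1-201 held 84.8, 85.3, 60.9 and 70.7%. Herpud1-205 held 92.8, 87.3, 76.8 and 76.6%. In the second quantification 6 of the 7 lay on the same side, with Calr-201 at 71.1, 69.0, 34.0 and 31.4% and Canx-201 at 71.4, 69.5, 45.8 and 45.9%. The exception was Edem1-201, at 48.7, 54.7, 45.6 and 51.3%, where the pairs overlapped. Manf-201 was at 49.4, 48.4, 67.0 and 66.0% in the first quantification, and its retained-intron transcripts averaged 32.2%. Hspa5 was carried by Hspa5-202, at 72.9, 76.4, 77.2 and 62.6%, and the 477-base Hspa5-204, annotated for nonsense-mediated decay, held 12.2, 10.3, 1.39 and 0.145%. The second quantification gave Hspa5-204 21.3, 16.1, 8.84 and 10.5%, so that its low share in replicates 3 and 4 differed in size between the 2. These shares were not tested, and short transcripts weigh heavily in TPM. Total counts in the second quantification were 1.314 and 1.324 times those in the first for replicates 1 and 2. For replicates 3 and 4 they were 1.074 and 1.062 times.

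**Figure D5:**
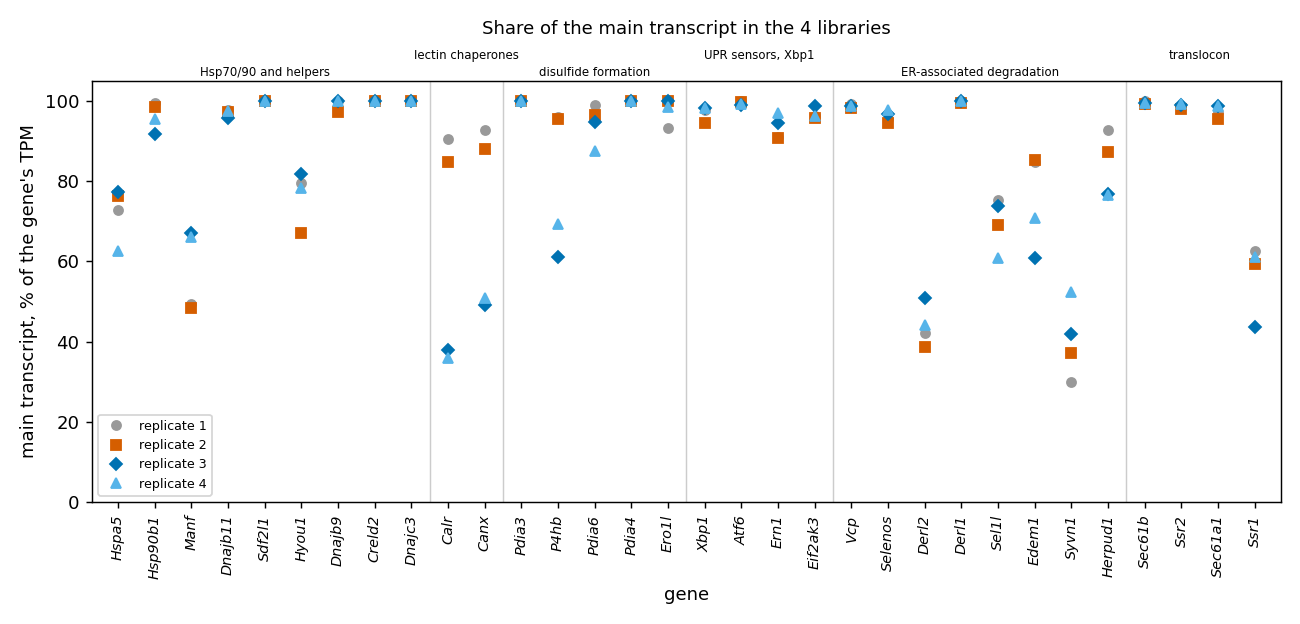
Share of each gene's TPM held by its main transcript in the 4 libraries. In Calr, Canx, P4hb, Edem1 and Herpud1 replicates 3 and 4 lie below replicates 1 and 2, and in most other genes the 4 libraries lie together near the top.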

How the data were processed

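PolyA-plus RNA of 4 macrophage libraries was quantified by the authors in gene and transcript tables with expected counts and TPM (column layout of RSEM), and in transcript tables with estimated counts and TPM (layout of kallisto, the second quantification). Per the deposited notes the tables use mm10 and GENCODE M21; the programs' versions are not stated in the sources used. TPM were scaled by the authors per library; the expected counts were deposited without scaling. Symbols were joined by gene identifier. Rows without a symbol there (spike-ins, tRNAs and 86 genes) held 0.0545 to 0.147% of counts and were left out. A count of 0 allows up to 3 counts, 0.0525 to 0.117 CPM, counting error only.

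Rounded expected counts of all genes entered edgeR 4.0.16 (R 4.3.3): TMM scaling, the filterByExpr filter at a minimum of 10 counts, the quasi-likelihood test and Benjamini-Hochberg adjustment with a threshold of 0.05. Alternatives were DESeq2 1.42.0, other size factors, no filter, the second quantification, offsets for GC content and length, another pseudocount (0.1 for 1), and each library left out. The promoter sequences are RefSeq's, the Xbp1 sequence is from GENCODE M21. The 32 genes, the other lists, the pairs and the rule for named genes (all 32, the PERK arm, the 3 most abundant and all called genes of the other lists) were chosen with earlier results of these data known.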

Additional observations from a re-analysis of the deposited data

Results flagged for a closer look

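In 6 of the 32 genes 1 of the 4 libraries stood apart in TPM, its gap to the nearest other library taking more of the whole range than Dixon's critical value for 4 samples allows. Chance gives about 1 such gene in 20, and 5.04% of all tested genes (604 of 11984) did so. Replicate 2 was high for Hspa5 (1231 TPM), Sdf2l1 (111 TPM), Creld2 (63.9 TPM) and Selenos (122 TPM), 4 of the 32 genes, against 2.26% of all tested genes with replicate 2 apart on the high side. Replicate 1 was low for Dnajb11 (141 TPM) and Pdia4 (46.5 TPM). The rule was applied in TPM only, not in TMM-scaled CPM, the scale used here to compare libraries. On that scale Dnajb11 was at 176, 197, 226 and 225, so that replicate 1 did not lie alone. Hspa5 was at 694, 1757, 879 and 985 and Pdia4 at 74.6, 117, 128 and 126. Selenos was at 49.97, 71.07, 43.02 and 47.46. In these, as in Sdf2l1 and Creld2, the same library stayed outermost, but whether it stood apart was not tested.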

How the results depend on the processing

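No paired analysis was possible because the series has 1 group. Sec61b was called lower also with other size factors (log2 fold change -1.34), the second quantification (-1.37), GC and length offsets (-1.14), no filter (-1.30), DESeq2 (-1.35) and without replicate 1 or 2. Without a filter 1 member was called higher (Calr) and 5 lower (Sdf2l1, Creld2, Herpud1, Derl1 and Sec61b), and with DESeq2 1 and 3. The number of members called lower ran from 0 to 3 with a library left out, the 3 being without replicate 1. Over all genes 687 were called, against 2564 without a filter, 1868 with DESeq2, 176 without replicate 1 and 0 without replicate 3 or 4, where the lone library of a pair is assumed to vary like the others. The cause of these differences was not tested. The members' median log2 fold change ran from -0.321 to 0.228 with a library left out. The difference from the chaperones outside the ER was -0.376 with genes of at least 1 TPM. The median main share was 91.5% in the second quantification.

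Log2 fold changes that changed sign were under the threshold in each setting where they did. With GC and length offsets these were Pdia6 (-0.01), Syvn1 (0.04) and Ssr2 (0.15), and without a filter Xbp1 (0.02), Ssr1 (0.00) and Ssr2 (0.01). With a library left out the ranges were -0.90 to 0.42 for Hspa5, -0.74 to 0.37 for Hyou1, -0.34 to 1.17 for Dnajb9, -0.41 to 0.24 for Dnajc3, -0.66 to 0.23 for Manf, -0.15 to 0.35 for Pdia6, -0.12 to 0.26 for P4hb, -0.84 to 0.07 for Ero1l, -0.54 to 0.29 for Ern1, -0.29 to 0.23 for Xbp1, -0.07 to 0.85 for Eif2ak3, -1.46 to 1.21 for Herpud1, -0.45 to 0.09 for Sel1l, -0.37 to 0.17 for Syvn1, -0.30 to 0.12 for Sec61a1, -0.21 to 0.12 for Ssr1 and -0.25 to 0.21 for Ssr2. The log2 ratio of Sec61b to Sec61a1, 0.07 in the main setting, was -0.02 in the second quantification and -0.13 to 0.29 with a library left out.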
